A study of Mus musculus with 4 samples.

Results

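The genes described here are 43 genes of the MAP kinase cascades among 22066 genes that could be named on the arrays. They are 12 MAP kinase kinase kinases, 7 MAP kinase kinases, 3 ERK-type, 3 JNK and 4 p38 MAP kinases, 3 MAPK-activated protein kinases, 10 dual-specificity phosphatases (DUSPs) and the transcription factor Atf2. The rule that picks them reads gene names and no measured value, and 73 probes carry one of these names. Expression was measured in interscapular brown adipose tissue (iBAT) and epididymal white adipose tissue (eWAT) of wild-type (WT) and ASK1-deficient (ASK1KO) mice under the labels' normal condition. There were 4 arrays, 1 for each genotype and tissue, and the RNA on each came from a pool of 3 males, 10 weeks old. The knockout is of the whole body, so every cell type of each tissue lacks ASK1. The study's methods give C57BL/6J as the strain of its mice. They also say that WT mice and the knockouts were bred apart, so genotype and colony cannot be told apart here. Without a replicate array of any condition, the variation among mice cannot be seen, and values within a tissue carry no p-value.

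A MAP kinase cascade passes a signal through successive kinases. A MAP kinase kinase kinase (MAP3K) phosphorylates a MAP kinase kinase (MAP2K), which phosphorylates the MAP kinase itself on a threonine and a tyrosine, and the MAP kinase then acts on further kinases and on transcription factors. ASK1, encoded by Map3k5, is a MAP3K that feeds the p38 and JNK branches. In brown adipocytes, adrenergic signalling through cAMP activates p38, which acts on Atf2 and promotes transcription of Ucp1. DUSPs remove both phosphates and switch the MAP kinases off, and several DUSP genes are themselves transcribed in response to MAP kinase activity. The arrays measure transcripts only and say nothing of phosphorylation.

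The 250 bases upstream of the transcription start are shown for the phosphatase genes on which the results turn, Dusp6, Dusp10 and Dusp2, and for Dusp1, a phosphatase gene of the immediate early class whose level differed little between genotypes. They are the RefSeq windows of the assembly GRCm38.p6, at chr10:99262981-99263230 (plus strand) for Dusp6, chr1:184034131-184034380 (plus strand) for Dusp10, chr2:127335909-127336158 (plus strand) for Dusp2 and chr17:26508473-26508722 (minus strand) for Dusp1, written 5′ to 3′. Capitals mark matches to 4 motifs searched on both strands, the cAMP response element TGACGTCA, its shorter core TGACG, the AP-1 site TGANTCA and the CCAAT box CCAAT. A match to the full element always holds a match to the core.
Dusp6: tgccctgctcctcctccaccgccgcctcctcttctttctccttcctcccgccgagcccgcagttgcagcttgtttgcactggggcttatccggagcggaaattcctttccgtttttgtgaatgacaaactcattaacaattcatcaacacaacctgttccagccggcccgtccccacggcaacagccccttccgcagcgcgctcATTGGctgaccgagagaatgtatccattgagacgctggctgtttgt
Dusp10: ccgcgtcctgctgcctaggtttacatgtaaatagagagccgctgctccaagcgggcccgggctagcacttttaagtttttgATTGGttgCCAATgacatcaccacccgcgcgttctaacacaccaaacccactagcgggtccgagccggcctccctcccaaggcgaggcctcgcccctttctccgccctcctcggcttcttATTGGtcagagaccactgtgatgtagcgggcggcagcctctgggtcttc
Dusp2: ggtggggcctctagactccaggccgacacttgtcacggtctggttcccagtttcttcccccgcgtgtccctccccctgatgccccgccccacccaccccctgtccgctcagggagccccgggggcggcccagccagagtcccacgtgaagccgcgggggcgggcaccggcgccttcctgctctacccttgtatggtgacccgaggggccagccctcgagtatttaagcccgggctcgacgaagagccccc
Dusp1: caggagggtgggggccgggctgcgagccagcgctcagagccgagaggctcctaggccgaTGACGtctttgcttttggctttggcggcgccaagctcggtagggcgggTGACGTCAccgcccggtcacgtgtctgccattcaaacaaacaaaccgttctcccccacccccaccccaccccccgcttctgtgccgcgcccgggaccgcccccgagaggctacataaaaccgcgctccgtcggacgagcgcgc

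The Dusp6 window holds 1 CCAAT box, on the minus strand, and the Dusp10 window holds 3, while the Dusp2 window matches none of the motifs. The Dusp1 window holds 1 full cAMP response element, whose first base lies 143 bases before the start, and 1 further core. Of 32851 RefSeq windows of this length, 1.55% held the full element, 17.8% the core, 6.75% the AP-1 site and 33.8% the CCAAT box. Of the 49 windows of the 38 genes of the set in that table, 3 held the full element, 17 the core, 3 the AP-1 site and 16 the CCAAT box. The motifs were chosen after the values were known, and a match is a description of letters only.

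The scanner signal of each probe was divided by the 75th percentile of its array, and this scaled signal is the level given throughout. The percentile was 356 and 371 on the WT and ASK1KO iBAT arrays and 673 and 634 on the eWAT arrays. All 4 arrays lay on 1 slide and were scanned together, with the arrays of each tissue at 1 side of the slide by their position labels. The tissues were as labelled, since the 12 brown adipocyte markers had a median log2 difference of 6.43 between iBAT and eWAT of WT mice and the white adipocyte markers one of -4.56. Map3k5, the targeted gene, differed by a log2 ratio of -1.03 in iBAT and -1.14 in eWAT as the mean of its probes. The WT eWAT array stood apart in its liver transcripts, with summed hepatocyte markers of 29.6 against 4.56 to 7.85 on the other arrays, and 4 of 5 measured in eWAT were at least 2-fold lower in ASK1KO mice. The eWAT arrays also differed in Ucp1, with an ASK1KO over WT log2 ratio of -4.63.

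Of the 43 genes, 38 gave a signal well above background on both iBAT arrays and 41 on both eWAT arrays. Mapk10, the JNK isoform known from neurons, and Dusp5, a nuclear phosphatase of ERK, were not well above background on any array. Map3k9, Map3k12 and Dusp9 were not well above background in iBAT. Map3k12 and Dusp9 have only a bound there, and Map3k9 has none, as its eWAT level lay below the iBAT limit. Repeated spots of one probe differed by a median SD of 0.0869 in the log2 ratio between genotypes in iBAT and 0.0599 in eWAT, which is the technical spread drawn in the plots of ratios. Only the probe of Map3k3, a MAP3K of the ERK5 branch, was printed repeatedly, with an SD of 0.0984 over 9 spots in iBAT and 0.0528 over 10 spots in eWAT. Among the 17 genes with more than 1 probe, the probes of a gene lay a median of 0.26 apart in the iBAT log2 ratio and 0.14 in eWAT, so that a difference of this size is within the disagreement of probes.

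Most genes of the cascade differed little between genotypes. In iBAT 2 of 38 differed at least 2-fold, Map3k8 higher and Dusp6 lower in ASK1KO mice, against 1.85% of all genes measured. By direction, 1 of 38 was higher against 0.835% of all genes and 1 was lower against 1.02%. In eWAT 1 of 41 differed at least 2-fold, Dusp2, against 1.15% of all genes, with 0 higher against 0.286% and 1 lower against 0.865%. The median log2 ratio of the set was -0.12 in iBAT, where that of all genes was -0.07, and -0.03 in eWAT, where that of all genes was 0.02. Of the 38 genes measured in both tissues, 21 (55.3%) had the same sign in iBAT and eWAT, against 49.4% of all genes. Among the 38, 16 were lower in both tissues, where 3782 of all 14059 genes were. The 2 genotype comparisons share no array. Counts of 1 or 2 genes are too small to be read against the share of all genes. Since these are bulk tissues, fewer cells of a type and less RNA per cell cannot be told apart.

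**Figure D1:**
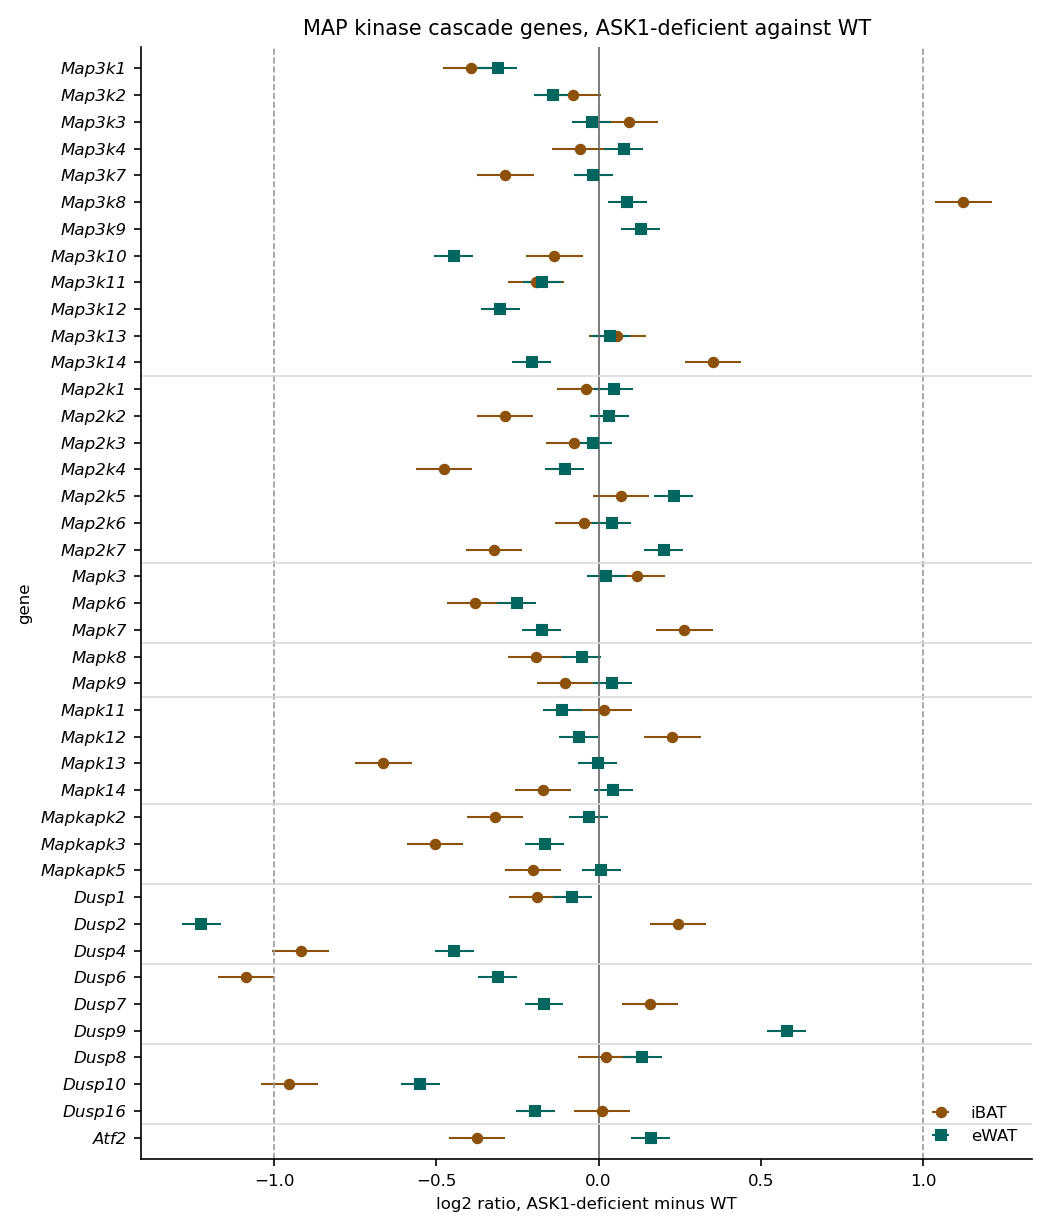
Log2 ratio of ASK1-deficient over WT (x axis) for each gene measured (y axis, grouped by role), in iBAT (circles) and eWAT (squares), 1 array per condition. Bars are the median SD over repeated spots, a technical spread and not that of mice, and dashed lines mark 2-fold. Most genes lie between the lines, and Map3k8 and Dusp6 in iBAT and Dusp2 in eWAT lie beyond them.

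Among the phosphatases, Dusp6, Dusp10 and Dusp4 were each lower in ASK1KO mice in both tissues, and more so in iBAT. Dusp6 encodes a cytoplasmic phosphatase of ERK. Its scaled signal was 22.1 in WT iBAT and 10.4 in ASK1KO iBAT, and 8.64 in WT eWAT and 6.97 in ASK1KO eWAT. The ASK1KO level was 2.12-fold lower in iBAT and 1.24-fold lower in eWAT, log2 ratios of -1.09 and -0.31. The iBAT ratio was -0.94 with quantile normalization and -0.98 with the percentile taken only over probes that passed background everywhere, short of 2-fold in both. In iBAT 0.765% of all genes measured had a lower ratio. The Dusp6 probe lies on chromosome 10 of the mouse assembly mm9, from 98729985 to 98730044 on the plus strand.

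Dusp10, a phosphatase of p38 and JNK, had a scaled signal of 3.48 in WT and 1.80 in ASK1KO iBAT, and 0.891 and 0.609 in eWAT. Its log2 ratio of -0.95 in iBAT lay just inside the 2-fold line, and that in eWAT was -0.55. Its probe is on chromosome 1 of mm9, from 185898608 to 185898667 on the plus strand. Dusp4, a nuclear phosphatase of ERK and JNK whose values were chosen for print after they had been seen, had scaled signals of 2.59 and 1.37 in iBAT and 1.27 and 0.930 in eWAT. Its log2 ratios were -0.92 and -0.44. Each of these 3 genes has 1 probe, so no second probe bears on them. In iBAT 1.20% of all genes had a ratio below that of Dusp10 and 1.31% below that of Dusp4. In eWAT the shares were 2.92% and 4.38%.

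Dusp2, a nuclear phosphatase known from activated lymphocytes and macrophages, differed mainly in eWAT. Its scaled signal was 0.496 in WT and 0.588 in ASK1KO iBAT, and 1.06 in WT and 0.455 in ASK1KO eWAT. The WT eWAT array was thus the highest and the other 3 lay close together. The ratio on the log2 scale was 0.25 in iBAT and -1.22 in eWAT, a 2.34-fold lower level, and 0.507% of all genes in eWAT had a lower ratio. The iBAT value lies within the median distance of 0.26 between probes of one gene, so its sign is not settled. The single probe is on chromosome 2 of mm9, from 127163930 to 127163989 on the plus strand. Of the 9 measured T and B cell markers 6 were lower in ASK1KO eWAT, with a median of -0.16 and Cd3g lowest at -0.96, and their summed scaled signal was 7.23 in WT and 6.87 in ASK1KO eWAT. In iBAT 5 of 7 were lower, with a median of -0.30 and sums of 8.26 and 6.51. Cd8a was not well above background on any array. Summed hepatocyte markers were 29.6 in WT and 4.56 in ASK1KO eWAT. Summed brown adipocyte markers were 53.5 and 20.6 in eWAT, and 4056 and 3371 in iBAT. The part of the lymphocyte, liver and brown fat transcripts in the Dusp2 difference was not tested.

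Dusp1, a nuclear phosphatase of p38 and JNK also chosen for print after its values were seen, had scaled signals of 6.41 and 5.62 in iBAT and 5.47 and 5.17 in eWAT. Its log2 ratios of -0.19 and -0.08 were at most about the distance between probes of one gene. Dusp8 and Dusp16, which act on JNK and p38, had log2 ratios of 0.02 and 0.01 in iBAT and 0.13 and -0.20 in eWAT. The 2 probes of Dusp7, an ERK phosphatase, overlap on chromosome 9 and still differed, at -0.20 and 0.52 in iBAT, so that its mean of 0.16 has no settled sign. Dusp9, another ERK phosphatase, was measured only in eWAT, with a scaled signal of 0.174 in WT and 0.261 in ASK1KO mice and a log2 ratio of 0.58. Of the 8 phosphatases measured in iBAT 4 had a ratio below 0 and 4 above, and of the 9 in eWAT 7 were below 0. Their medians were -0.09 and -0.20, against -0.07 and 0.02 for all genes.

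**Figure D2:**
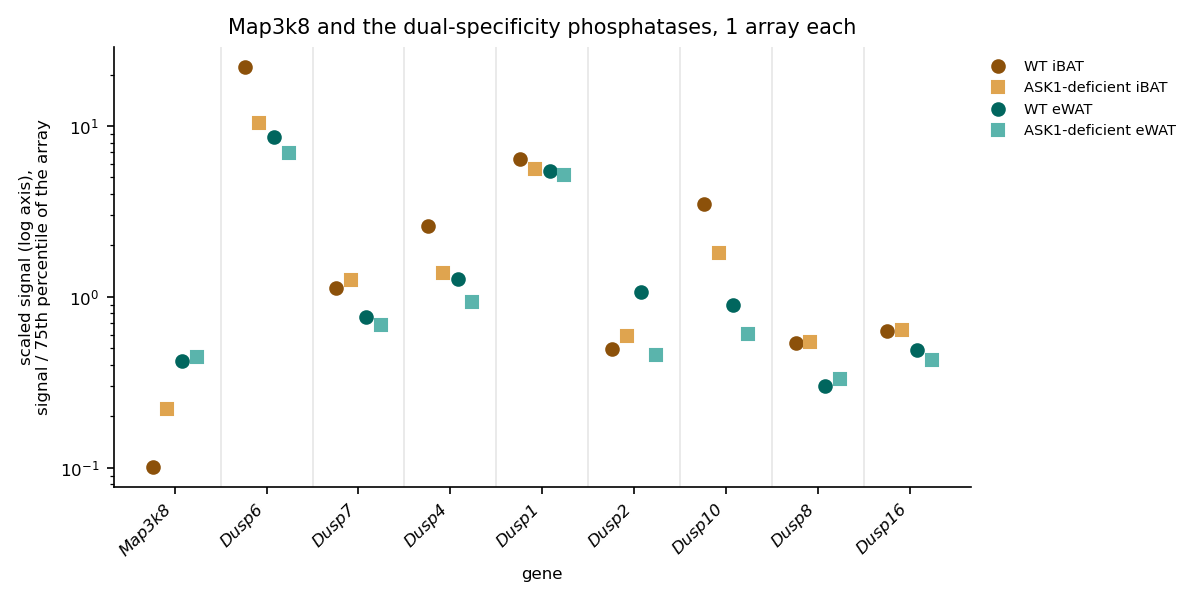
Scaled signal (y axis, log scale, signal over the array's 75th percentile) of Map3k8 and the phosphatases measured on all arrays (x axis), with 1 point for each of the 4 arrays. For Dusp6, Dusp4 and Dusp10 the ASK1-deficient point (square) lies below the WT point (circle) in both tissues, whereas Dusp2 does so in eWAT only. Levels are comparable within a gene and not between genes, which have different probes.

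Immediate early genes, like several DUSP genes, are transcribed soon after a stimulus. Of 18 measured, 6 were at least 2-fold lower in ASK1KO iBAT, against 1.02% of all genes, and 1 was at least 2-fold higher, against 0.835%. Altogether 14 had a ratio below 0 and 4 above, and the median log2 ratio was -0.46 against -0.07 for all genes. The orphan receptor genes Nr4a1 and Nr4a2 had ratios of -2.40 and -1.81, and Jun and Atf3, components of AP-1 type factors, -1.48 and -1.25. Egr2 and Ier3 followed at -1.04 and -1.02, and Myc was higher at 1.81. Their summed scaled signal was 226 in WT and 95.3 in ASK1KO iBAT. In eWAT 0 of 18 passed 2-fold, the median was -0.27 and the sums were 86.7 and 79.6. Their part in the phosphatase differences was not tested.

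Among the kinases, Map3k8 differed most between genotypes in iBAT at probes that passed background. Map3k8 encodes Tpl2, a MAP3K that activates the ERK branch downstream of inflammatory receptors. Its scaled signal was 0.101 in WT and 0.221 in ASK1KO iBAT, 2.18-fold higher, and 0.420 and 0.447 in eWAT. The log2 ratios were 1.12 and 0.09. The WT iBAT level is low, an unscaled signal of 36.1 where the lowest signals well above background lay at 19.7. With normexp background correction, which adds an offset of 50 to each signal, the ratio was 0.51. Such an offset by itself draws the ratios of dim probes towards 0. Macrophage markers were higher in the same array. All 12 measured were higher in ASK1KO iBAT, with a median log2 ratio of 0.69 and 1 of them past 2-fold, and their summed scaled signal was 21.4 in WT and 29.4 in ASK1KO iBAT. In eWAT their median was -0.02 and the sums were 118 and 115. No marker of that list was below background on every array, and their part in the Map3k8 difference was not tested.

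The other MAP3Ks had log2 ratios between -0.39 and 0.35 in iBAT and between -0.45 and 0.13 in eWAT. The lowest in iBAT was Map3k1, which feeds JNK and ERK, at -0.39, and it was -0.31 in eWAT. Its 2 probes agreed within 0.09 in iBAT and 0.03 in eWAT. Map3k14, the NF-κB-inducing kinase, was the highest of them in iBAT at 0.35 and was -0.21 in eWAT. Map3k10, a mixed lineage kinase upstream of JNK, was the lowest in eWAT at -0.45. Map3k2, Map3k3, Map3k4, Map3k7, Map3k11 and Map3k13 lay between -0.29 and 0.09 in iBAT and between -0.17 and 0.08 in eWAT, and Map3k9 and Map3k12, measured in eWAT alone, had ratios of 0.13 and -0.30.

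Of the 7 MAP2Ks 6 had a ratio below 0 in iBAT, with a median of -0.07, and 2 in eWAT, with a median of 0.04. The medians of all genes were -0.07 and 0.02. The iBAT count rests on the scaling. Map2k1 was 0.07 with quantile normalization. Map2k3 and Map2k6 were 0.03 and 0.06 with the percentile taken only over probes that passed background on all arrays. Map2k4, which activates JNK, had the lowest ratio, -0.48 in iBAT and -0.10 in eWAT. Map2k7, the other activator of JNK, was -0.32 in iBAT and 0.20 in eWAT. Map2k1 and Map2k2, the activators of ERK, had ratios of -0.04 and -0.29 in iBAT and of 0.05 and 0.03 in eWAT, and Map2k5, that of ERK5, had 0.07 and 0.23.

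Of the MAP kinases outside the p38 branch, Mapk3, which encodes ERK1, had ratios of 0.12 and 0.02, and Mapk7, which encodes ERK5, 0.26 and -0.17. Mapk6, which encodes the atypical kinase ERK3, was lower at all 3 probes in both tissues, with means of -0.38 and -0.25. Mapk9, which encodes JNK2, had -0.10 and 0.04. The 3 probes of Mapk8, the JNK1 gene on chromosome 14, did not agree. At the probe from 34195274 to 34195333 on mm9 the ratio was -0.76 in iBAT and -0.62 in eWAT, while the probes on either side of it gave 0.11 and 0.08 in iBAT and 0.23 and 0.24 in eWAT. All 3 were well above background on all 4 arrays, but the outer probes were dim in iBAT. Their unscaled signals in WT and ASK1KO iBAT were 28.1 and 31.6, and 30.7 and 33.9, against 74.7 and 45.9 at the middle probe. The lowest signals well above background lay at 19.7 and 17.3 on these arrays. The gene's means of -0.19 and -0.05 hide this split, which recurred in both tissues.

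The p38 branch, to which ASK1 signals, is described gene by gene. At probes that passed background none of its 10 genes was past 2-fold between genotypes, where 1.85% of all genes were in iBAT and 1.15% in eWAT. Map2k3 and Map2k6 encode the kinases that activate p38. The scaled signal of Map2k3 was 2.45 and 2.33 in WT and ASK1KO iBAT and 2.14 and 2.11 in eWAT. That of Map2k6 was 1.12 and 1.08 in iBAT and 0.456 and 0.469 in eWAT. Their log2 ratios were -0.07 and -0.05 in iBAT and -0.02 and 0.04 in eWAT, within the technical spread of each tissue.

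Mapk14, the p38α gene, had scaled signals of 2.39 and 2.12 in iBAT and 2.32 and 2.39 in eWAT. Mapk11, the p38β gene, had 1.05 and 1.07 in iBAT and 0.624 and 0.578 in eWAT. Mapk12, the p38γ gene known from muscle, had 5.26 and 6.16 in iBAT and 4.22 and 4.04 in eWAT. The differences of these 3 genes between genotypes were at most 0.23 on the log2 scale. Mapk13, the p38δ gene, was the exception, with 0.340 in WT and 0.215 in ASK1KO iBAT, a log2 ratio of -0.66, against 0.133 on both eWAT arrays. With the normexp correction and its offset of 50 its iBAT ratio was -0.30.

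Downstream of p38, the 3 MAPK-activated protein kinases had a median log2 ratio of -0.32 in iBAT, against -0.07 for all genes, and -0.03 in eWAT, against 0.02. Mapkapk2, which relays p38 signals to RNA-binding proteins, had scaled signals of 11.9 and 9.57 in iBAT and 5.44 and 5.33 in eWAT. Mapkapk3, its close relative, had 9.95 and 7.01 in iBAT and 4.88 and 4.35 in eWAT, a log2 ratio of -0.50 in iBAT and -0.17 in eWAT. Its second probe was well above background in WT iBAT only and was left out of these means. By its bound it was at least 1.83-fold lower in ASK1KO iBAT. With no filter on dim probes the iBAT log2 ratio of Mapkapk3 was -1.22, past 2-fold. Mapkapk5 had 12.2 and 10.6 in iBAT and 9.21 and 9.27 in eWAT, and its 2 probes gave log2 ratios of -0.24 and -0.17 in iBAT. Atf2, a transcription factor phosphorylated by p38 and JNK, had 1.94 and 1.5 in iBAT and 0.689 and 0.771 in eWAT, log2 ratios of -0.38 and 0.16 over 4 probes. All 4 Atf2 probes were lower in iBAT, from -0.60 to -0.27, and they spread from -0.06 to 0.55 in eWAT.

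**Figure D3:**
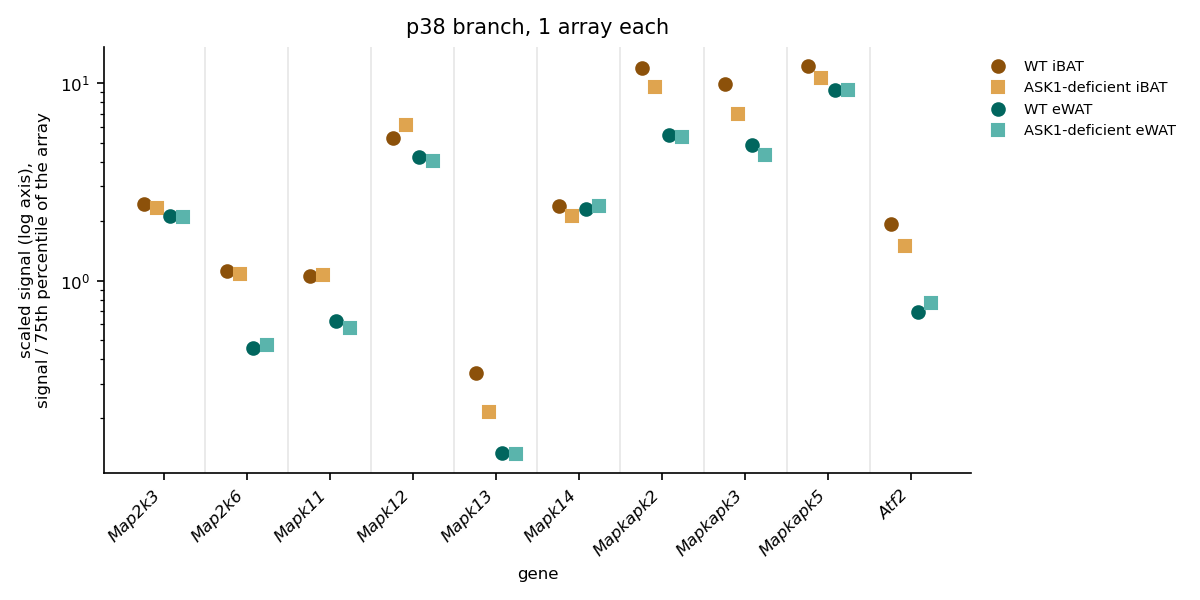
Scaled signal (y axis, log scale, signal over the array's 75th percentile) of the p38 branch genes (x axis), with 1 point for each of the 4 arrays (circles WT, squares ASK1-deficient). The genotype points lie close together for most genes, with Mapk13 in iBAT the widest apart (0.340 in WT and 0.215 in ASK1-deficient mice). Levels are comparable within a gene and not between genes.

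Of 88 further genes of these pathways, 84 were measured in iBAT and 86 in eWAT. In iBAT 5 were at least 2-fold lower, against 1.02% of all genes, and 1 higher, against 0.835%, with a median of -0.08. In eWAT 1 was lower, against 0.865%, and 1 higher, against 0.286%, with a median of -0.02. The targeted gene Map3k5 is among the lower genes of each tissue, and is the 1 in eWAT. Besides Map3k5, Jun, Atf3 and Myc, these were Ptpn7, a tyrosine phosphatase of ERK and p38, at -1.98 in iBAT and -0.64 in eWAT, Spry4, an inhibitor of receptor tyrosine kinase signalling, at -1.29 and 0.20, and Mapk8ip2, a scaffold of the JNK cascade, at -0.19 and 1.29. Among 12 other phosphatases 10 had a ratio below 0 in iBAT and 2 in eWAT. Their medians were -0.27 and 0.10, against -0.07 and 0.02 for all genes. The Ras and Raf genes, the MAP4K and small GTPase genes, the scaffolds in iBAT and the other MAPK-activated kinases had no gene past 2-fold. Of the ASK family, Map3k6, which encodes ASK2, had ratios of 0.92 and 0.55, below 2-fold in both tissues.

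More of these genes were past 2-fold between the tissues than between genotypes. In WT mice 14 of 38 genes differed at least 2-fold between iBAT and eWAT (36.8%), against 29.8% of all genes, with 10 higher in iBAT against 16.4% and 4 lower against 13.4%. In ASK1KO mice 6 of 38 did (15.8%), against 25% of all genes, with 4 higher in iBAT against 12.3% and 2 lower against 12.6%. The median log2 difference was 0.39 in WT mice and 0.40 in ASK1KO mice, where those of all genes were 0.12 and 0.03. The set's median less that of all genes was 0.27 and 0.37, but -0.01 and 0.09 with no filter on dim probes. The direction rests on the scaling, because the eWAT arrays were brighter: without scaling 1 gene was higher and 10 lower in WT mice and 0 higher and 5 lower in ASK1KO mice. Each tissue comparison shares its arrays with the genotype comparisons, so the same WT iBAT value of Dusp6 or Map3k8 enters both.

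A fit of genotype and tissue together over the 4 arrays with limma called 24 of 38 genes between tissues at an adjusted p under 0.05 (63.2%), against 55.5% of all genes. Of these, 19 were higher in iBAT against 30.8% of all genes and 5 lower against 24.6%. The fit has 1 residual degree of freedom, and its residual is the difference between genotypes in the tissue effect and not the spread between mice. For genotype it called 0 of 38 genes, and 0% of all genes, at an adjusted p under 0.05. At an unadjusted p under 0.05 it picked 3 of 38, against 5.48% of all genes. They were Dusp10 (log2 -0.75 ± 0.17 (SE), limma unadjusted p = 0.0036, adjusted p = 0.57), Dusp4 (-0.68 ± 0.17, unadjusted p = 0.0071, adjusted p = 0.65) and Dusp6 (-0.70 ± 0.21, unadjusted p = 0.016, adjusted p = 0.81). None of the 3 passed the correction over 14057 genes. A small p-value here asks for similar ratios in both tissues. That each of the 3 was lower in both thus follows largely from the fit.

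**Figure D4:**
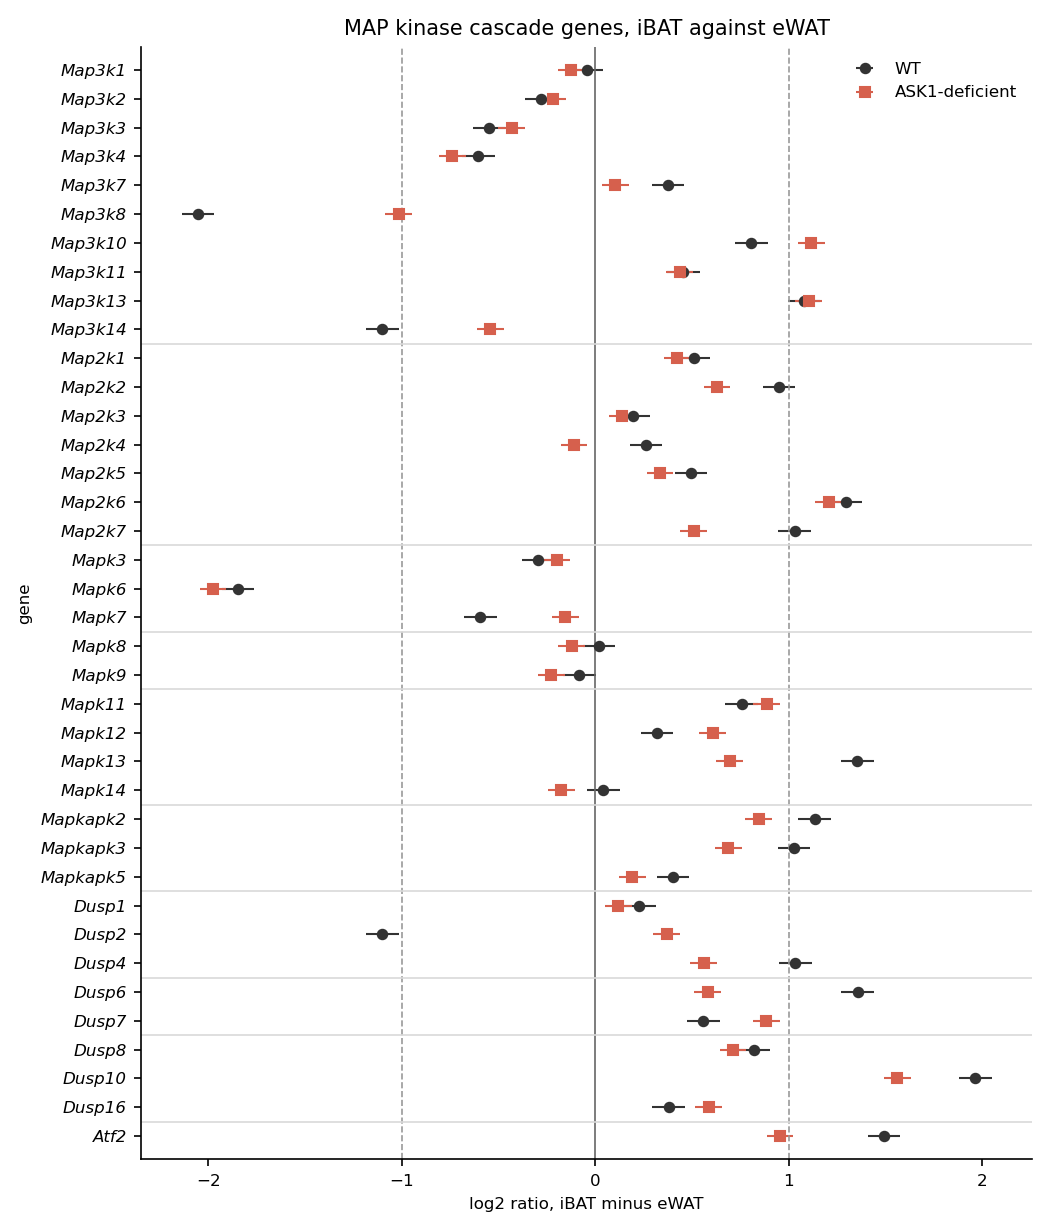
Log2 ratio of iBAT over eWAT (x axis) for each gene measured in both tissues (y axis, grouped by role), in WT (circles) and ASK1-deficient mice (squares), 1 array per condition. Bars are the median SD over repeated spots and dashed lines mark 2-fold. Mapk6 and Map3k8 lie far below 0 and Dusp10 far above it, and without scaling between arrays most genes would lie below 0.

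Genes lower in brown fat were led by Mapk6 and Map3k8. The scaled signal of Mapk6 was 0.366 and 0.281 in WT and ASK1KO iBAT and 1.31 and 1.10 in eWAT, log2 differences of -1.85 and -1.98 (limma adjusted p = 0.00015). Its 3 probes ranged from -2.20 to -1.31 in WT mice, so all showed the direction. Map3k8 differed by -2.05 in WT and -1.02 in ASK1KO mice (limma adjusted p = 0.0030). The macrophage markers, with a median of -3.00 in WT mice, lay in the same direction, and their part was not tested. Map3k14 had differences of -1.10 and -0.54, and Map3k3 and Map3k4 had smaller ones that also passed the fit. Of these, only Mapk6 and Map3k8 were past 2-fold in both genotypes. With normexp background correction Map3k8 was past 2-fold in neither, at -0.99 in WT and -0.50 in ASK1KO mice, whereas Mapk6 stayed past it in both, at -1.35 and -1.34.

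By the mean over the genotypes, genes higher in brown fat were led by Dusp10, at 1.97 in WT and 1.56 in ASK1KO mice (limma adjusted p = 0.00031). Map2k6 followed at 1.29 and 1.21 (limma adjusted p = 0.00072), but in WT mice alone Atf2, Dusp6 and Mapk13 lay above it. With no filter on dim probes Map2k6 was 0.22 in WT mice. Atf2 differed by 1.49 and 0.96 (limma adjusted p = 0.0019). Map3k13, a leucine zipper-bearing MAP3K of the JNK branch, had scaled signals of 0.426 and 0.443 in WT and ASK1KO iBAT and 0.201 and 0.206 in eWAT, differences of 1.08 and 1.10 that hardly depended on genotype. Map3k10 had scaled signals of 0.183 and 0.167 in iBAT and 0.105 and 0.0768 in eWAT, differences of 0.81 and 1.12. Mapk13 differed by 1.36 and 0.70, Mapkapk2 by 1.13 and 0.85 and Dusp6 by 1.36 and 0.58.

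By role, and with the arrays scaled, all 7 MAP2Ks were above 0 in WT mice, and Map2k4 alone was below 0 in ASK1KO mice, at -0.11. The fit called 30.8% of all genes higher in iBAT, and among the MAP2Ks Map2k1, Map2k2, Map2k6 and Map2k7. Of the p38 genes it called Mapk11, Mapk12 and Mapk13 and not Mapk14 (limma adjusted p = 0.74), whose differences of 0.04 and -0.17 had opposite signs. Skeletal muscle markers were also higher in iBAT, with a median difference of 8.92 in WT mice and summed scaled signals of 864 and 859 in WT and ASK1KO iBAT against 18.2 and 14.9 in eWAT, and their part in the Mapk12 difference was not tested. Of the phosphatases it called Dusp4, Dusp6, Dusp7, Dusp8, Dusp10 and Dusp16 as higher in iBAT, and neither Dusp1 nor Dusp2. Without scaling between arrays the fit called 2 of the 38 genes higher and 21 lower. Of the genes not well above background in iBAT, 2 were higher in eWAT in both genotypes, Dusp9 at least 3.15-fold in WT and 5.60-fold in ASK1KO mice, and Map3k12, a MAP3K of JNK known from neurons, at least 2.74-fold and 2.64-fold. These bounds set the eWAT level against the lowest signal well above background on the iBAT array.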

How the data were processed

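Expression was measured on 4 one-colour Agilent arrays (Cy3), 1 for each genotype and tissue. The authors deposited the output of Agilent Feature Extraction 10.7.3.1, whose processed signal is a linear intensity with its background corrected and no scaling from array to array. A deposited series table holds a linear signal, equal to the processed signal of each array divided by 1 constant, which was used as an alternative. Probe positions are those of the array design on mm9, and exons were not assigned.

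After control and outlier spots were removed, repeated spots of a probe were averaged, and each array's log2 values were set relative to its 75th percentile. A gene took the mean of those of its probes that passed background on both arrays compared. Of 34844 gene names, 22147 were matched to RefSeq (GRCm38.p6), giving 22066 genes. The threshold was 2-fold, and a probe below background on 1 array was given a bound. Genotype and tissue were fitted together with limma 3.58.1 (lmFit and eBayes) over 14057 genes, with Benjamini-Hochberg adjustment. In 1 simulated draw of the tissue comparison over 14057 genes, 200 were changed by a log2 value of 2. The noise came from the fit's own prior. The fit called 198 of the changed genes and 26 unchanged genes, 11.6% of its calls, at an adjusted p under 0.05. The adjusted p-values of the tissue calls may be too small as well. A single draw with changes of 1 size cannot settle this.

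The genes of the set, the marker and pathway lists and the tests were chosen with earlier results of these data known. Signals of every array are given for genes at least 2-fold apart between genotypes, for the 10 with the largest mean tissue difference and for the p38 branch. Genes of the pathway lists are named where at least 2-fold apart, and Map3k6 was added after its values were seen. No replicate exists, so the number of arrays limits the precision. The analysis used R 4.3.3, Python 3.11.15, numpy 2.4.6, pandas 2.3.3 and matplotlib 3.10.9.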

Additional observations from a re-analysis of the deposited data

Results flagged for a closer look

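The log2 ratio of Dusp2 between genotypes had opposite signs in the tissues, 0.25 in iBAT and -1.22 in eWAT. The iBAT value rests on 1 probe and lies within the usual distance between probes of one gene, so its sign is not settled. The effect in iBAT exceeded that in eWAT by 1.47. With 1 array for each condition the difference was not tested, and the value in WT eWAT alone sets it apart.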

How the results depend on the processing

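No paired analysis was possible because each group has 1 array and so no replicate numbers, and no array could be left out. The fit with tissue as a term is the only blocked comparison of the genotypes. In iBAT the 2 genes past 2-fold became 5 with a 1.5-fold threshold (Dusp10, Dusp4 and Mapk13 added) and 4 with the table of the series (Dusp10 and Dusp4 added). They were also 4 with no filter on dim probes (Mapkapk3 and Dusp5 added). They became 1 with normexp background correction (Dusp6), and 1 with quantile normalization or with the percentile taken only over probes that passed background on all arrays (Map3k8). The single gene in eWAT, Dusp2, remained under every alternative run. Between tissues the 14 genes of WT mice became 6 with normexp, and the 6 of ASK1-deficient mice became 3 with normexp and 17 with a 1.5-fold threshold. No value past 2-fold changed sign in a genotype comparison.

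The median of the set in iBAT was -0.016 with that percentile, and that in eWAT was -0.12 without scaling. For tissue, the medians without scaling were -0.53 in WT and -0.38 in ASK1-deficient mice, that in WT was 0.26 with the percentile over probes that passed background, and that in ASK1-deficient mice was 0.31 with median centring and 0.32 with the table of the series. Without scaling the median of all genes moved by -0.92 in WT and -0.77 in ASK1-deficient mice, and in iBAT it moved by 0.10 with the percentile over probes that passed background. The set's median less that of all genes was 0.27 in WT and 0.37 in ASK1-deficient mice. Dividing arrays by another constant cannot move it, but it was 0.19 and 0.27 with normexp, 0.32 and 0.41 with quantile normalization, 0.20 and 0.35 with the brightest probe of each gene, and -0.01 and 0.09 with no filter on dim probes. Without scaling the fit called 2 genes higher and 21 lower in iBAT, where it had called 19 and 5. Of all genes past 2-fold in iBAT, 45.1% were higher in ASK1-deficient mice, against 61.8% with the percentile over probes that passed background, 32.6% with median centring and 31.7% with the series table. Of all values under the alternatives, 963 moved by less than the technical spread (counts by less than 1.5 times) and 429 by more.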
